A study of Mus musculus with 6 samples.

Results

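The miR-26 family of the mouse consists of the guide strands mmu-miR-26a-5p and mmu-miR-26b-5p (the prefix for mouse is left out below), which were found by name as 2 of the 1482 rows of a small RNA count table from mouse spinal cord. Both were among the 614 rows with enough counts to be tested. By the labels, the control group was 3 mice with a laminectomy at T10 and no contusion, and the SCI group (spinal cord injury) was 3 mice with the same laminectomy and then a moderate contusion at T10 by a 10 g weight dropped 20 mm. Antibiotics and bladder massage are described after surgery, the mice were killed on day 2, and about 1 cm of cord around T10 gave 1 library per mouse; the sources used here give no strain, sex or age.

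miR-26 is a vertebrate microRNA family whose genes lie inside genes for small C-terminal domain phosphatases: Mir26b in Ctdsp1, Mir26a-1 in Ctdspl and Mir26a-2 in Ctdsp2. These host proteins act with REST to silence neuronal genes outside neurons, and in zebrafish neural stem cells miR-26b represses the ctdsp2 transcript that hosts it. Outside the nervous system miR-26 is best known for restraining growth: Myc lowers its transcription, and it represses the chromatin enzyme Ezh2.

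The mature strands are shown because they share a seed, the part of a miRNA that pairs with its targets, and differ only outside it. Sequences are from RefSeq on GRCm38.p6, 5′ to 3′, with the seed (bases 2 to 8) in capitals.
miR-26a-5p: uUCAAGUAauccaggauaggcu
miR-26b-5p: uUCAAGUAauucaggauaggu
Counted from the 5′ end of miR-26a-5p, the differences over the 21 bases compared were C11U and C21U, and miR-26a-5p is 1 base longer, at 22. The shared seed UCAAGUA pairs with the target letters UACUUGA. Of the 1482 rows, 1175 had a mature sequence in the RefSeq table, and no row other than these 2 held this seed.

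The hairpins show where the strands come from. Both miR-26a hairpins give the same 5p strand, so its reads cannot be assigned to one of them, while the 3p (passenger) strands, which are mostly discarded, differ between all 3 hairpins. Mature strands are in capitals, 5p first.
Mir26a-1: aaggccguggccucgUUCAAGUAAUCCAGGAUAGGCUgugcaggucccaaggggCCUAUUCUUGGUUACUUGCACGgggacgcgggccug
Mir26a-2: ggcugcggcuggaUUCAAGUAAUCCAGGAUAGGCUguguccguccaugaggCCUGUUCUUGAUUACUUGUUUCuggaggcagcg
Mir26b: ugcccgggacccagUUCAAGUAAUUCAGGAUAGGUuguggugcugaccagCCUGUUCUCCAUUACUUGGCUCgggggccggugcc
On GRCm38, Mir26a-1 is at chr9:119031796-119031885, Mir26a-2 at chr10:126995530-126995613 and Mir26b at chr1:74394310-74394394, all on the plus strand, as are their hosts. In GENCODE M21 each lies in an intron of the longest coding transcript of its host: intron 5 of Ctdspl, intron 5 of Ctdsp2 and intron 4 of Ctdsp1. The Mir26a-2 hairpin overlaps an exon in 2 other annotated Ctdsp2 transcripts.

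The libraries held 5568491 to 8889977 counts. Rows that mark injury and blood ran against the labels. miR-21a-5p, which is induced in injured tissue, was 8.34-fold lower in the SCI-labelled group, all 3 myeloid and all 3 red cell marker rows were lower and past the test, and the deposited column names of the SCI-labelled libraries begin with Normal. Each direction below is therefore that of the labels as deposited. Cord markers were present in every library: the neuronal rows miR-124-3p, miR-128-3p and miR-9-5p together held 58454 to 118220 CPM (read counts scaled to the same library total), and the 3 oligodendrocyte rows 9118 to 10835. Most of the neuronal sum was miR-9-5p. Its TMM-scaled means (explained below) were 64270 CPM under the control label and 96125 under the SCI label, against 1131 and 789 for miR-124-3p. Some cord markers moved with the groups: miR-128-3p was 2.76-fold and the Hox-hosted miR-10a-5p and miR-10b-5p 1.81-fold and 2.25-fold higher under the SCI label, and miR-9-5p was higher by 0.58 on the log2 scale, all past the test. miR-124-3p had the opposite sign (log2 -0.52), and neither it nor the oligodendrocyte rows passed. The part of these cord markers in the results below was not tested. Control-labelled library 3 stood apart by its skeletal muscle rows, with a summed 43457 CPM against a lowest value of 7834 in its group.

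The 2 guide strands parted between the groups. miR-26b-5p was 1.54-fold lower in the SCI-labelled libraries, while miR-26a-5p, with 8.10 to 15.8 times as many reads, showed no difference that passed the test. miR-26b-5p made up 10.6% ± 0.570 of the family's counts in control-labelled libraries and 6.56% ± 0.521 in SCI-labelled ones (SD, n = 3 each). In tissue samples such as these, fewer cells of a type and less RNA per cell cannot be told apart.

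miR-26a-5p was among the most abundant miRNAs of the cord, ranking between 11 and 15 in every library. It was at 20349, 22356 and 20838 CPM in control-labelled libraries 1, 2 and 3. In SCI-labelled libraries 1, 2 and 3 it was at 24179, 22994 and 22656 CPM. These values are scaled by TMM, a factor per library that evens out differences in composition, and on this scale every SCI-labelled library was slightly above every control-labelled one. That separation depended on the scaling: the log2 change was 0.14 by TMM and 0.06 by library total. By RLE and upper quartile, other factors of this kind, it was 0.16 and 0.25. None of these passed the test. As a plain share of library counts miR-26a-5p took 1.93%, 2.22% and 2.40% in the control-labelled libraries, with exact binomial 95% intervals of 1.92 to 1.94, 2.21 to 2.23 and 2.39 to 2.42. The SCI-labelled shares were 2.47%, 2.09% and 2.25% (2.46 to 2.48, 2.08 to 2.10 and 2.24 to 2.26), and the groups overlapped. These intervals cover counting error only.

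The group means of miR-26a-5p were 21181 ± 1047 and 23276 ± 800 CPM (SD, n = 3 each), a log2 change, SCI-labelled minus control-labelled, of 0.14 (SE 0.16; edgeR quasi-likelihood adjusted p = 0.515). The 95% interval ran from -0.22 to 0.49, or from 0.860-fold to 1.40-fold. Of the 614 rows, 11.4% had a smaller absolute log2 change. The other rows around its abundance varied more: miR-127-3p, of the imprinted Dlk1-Dio3 region, was next above at a mean of 26046 ± 7911 CPM (SD over 6 libraries), and miR-30d-5p was next below at 19905 ± 3890, against 22229 ± 1418 for miR-26a-5p. These SDs pool both groups. miR-127-3p was higher under the SCI label (log2 0.77, edgeR quasi-likelihood adjusted p = 0.0123), and miR-30d-5p, at log2 -0.33, did not pass the test. Over the 6 libraries the 3 levels overlapped.

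miR-26b-5p stood lower in the order of abundance, ranking between 48 and 67. It was at 2462, 2760 and 2294 CPM in control-labelled libraries 1, 2 and 3. In SCI-labelled libraries 1, 2 and 3 it was at 1532, 1677 and 1683 CPM. All 3 SCI-labelled libraries were below all 3 control-labelled ones, and the same held for the plain CPM of library totals, at 2331 to 2738 against 1524 to 1671. Its neighbours in mean level were miR-25-3p above at 2075 ± 1638 CPM and miR-708-3p below at 1957 ± 935, against 2068 ± 505 for miR-26b-5p (SD over 6 libraries). These SDs pool both groups, and both neighbours passed the test. By edgeR quasi-likelihood, miR-25-3p was lower under the SCI label (log2 -2.05, adjusted p = 0.00167) and miR-708-3p higher (1.26, 0.0107).

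**Figure D1:**
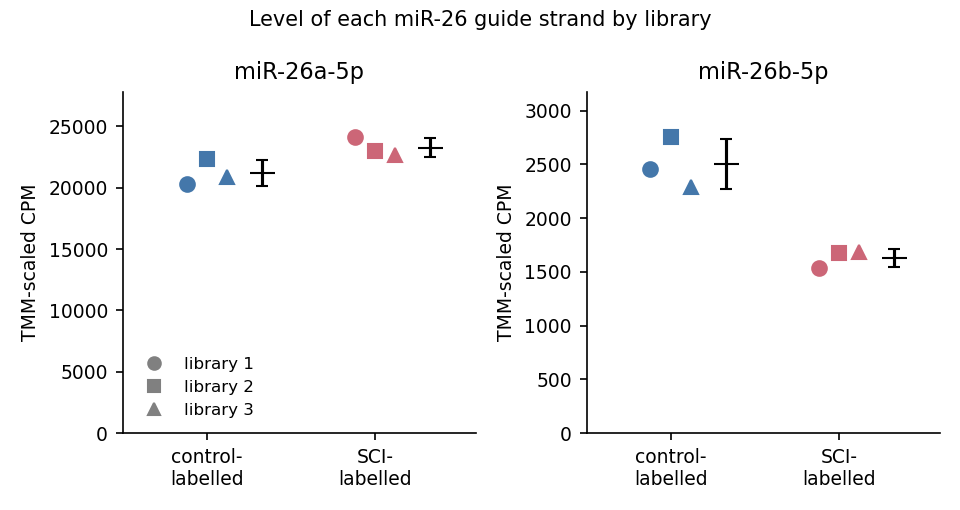
TMM-scaled CPM of miR-26a-5p and miR-26b-5p in each of the 3 control-labelled (blue) and 3 SCI-labelled (red) libraries; marker shape gives the library number, and the black bar is the mean with its SD (n = 3). miR-26a-5p lies between 20349 and 24179 CPM throughout, while miR-26b-5p is at 2294 to 2760 under the control label and 1532 to 1683 under the SCI label.

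The group means of miR-26b-5p were 2506 ± 236 and 1631 ± 85.4 CPM (SD, n = 3 each). The log2 change was -0.62 (SE 0.17, 95% interval -0.999 to -0.24; edgeR quasi-likelihood adjusted p = 0.0194), which is 1.54-fold lower with an interval of 1.18 to 2.00. This result is to be read against a table in which 39.4% of all rows passed the test (40.2% by DESeq2), 23.1% as lower and 16.3% as higher; among the 90 rows of at least 1000 CPM, 52.2% passed and 22.2% as lower. Libraries of the groups did not overlap in 51.3% of rows. The change of miR-26b-5p was also of ordinary size, since 49.2% of rows had a smaller absolute log2 change.

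The sign of the miR-26b-5p difference was the same in each of the 20 other settings tried, with log2 values from -0.75 to -0.51, but the adjusted p crossed the threshold in 7 of them. The value of -0.75 is from the fit scaled to miR-26a-5p, described below, which measures a ratio to that strand. By edgeR the call was lost without control-labelled library 1 (adjusted p = 0.0558) or without SCI-labelled library 1 (0.101), 2 (0.0994) or 3 (0.0787), and held without control-labelled library 2 (0.0477) or 3 (0.0065). It was also lost with upper-quartile scaling (0.0766) and with no count filter (0.0750). DESeq2 (0.0122) and limma voom with a quality weight per library (0.0063) called it.

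**Figure D2:**
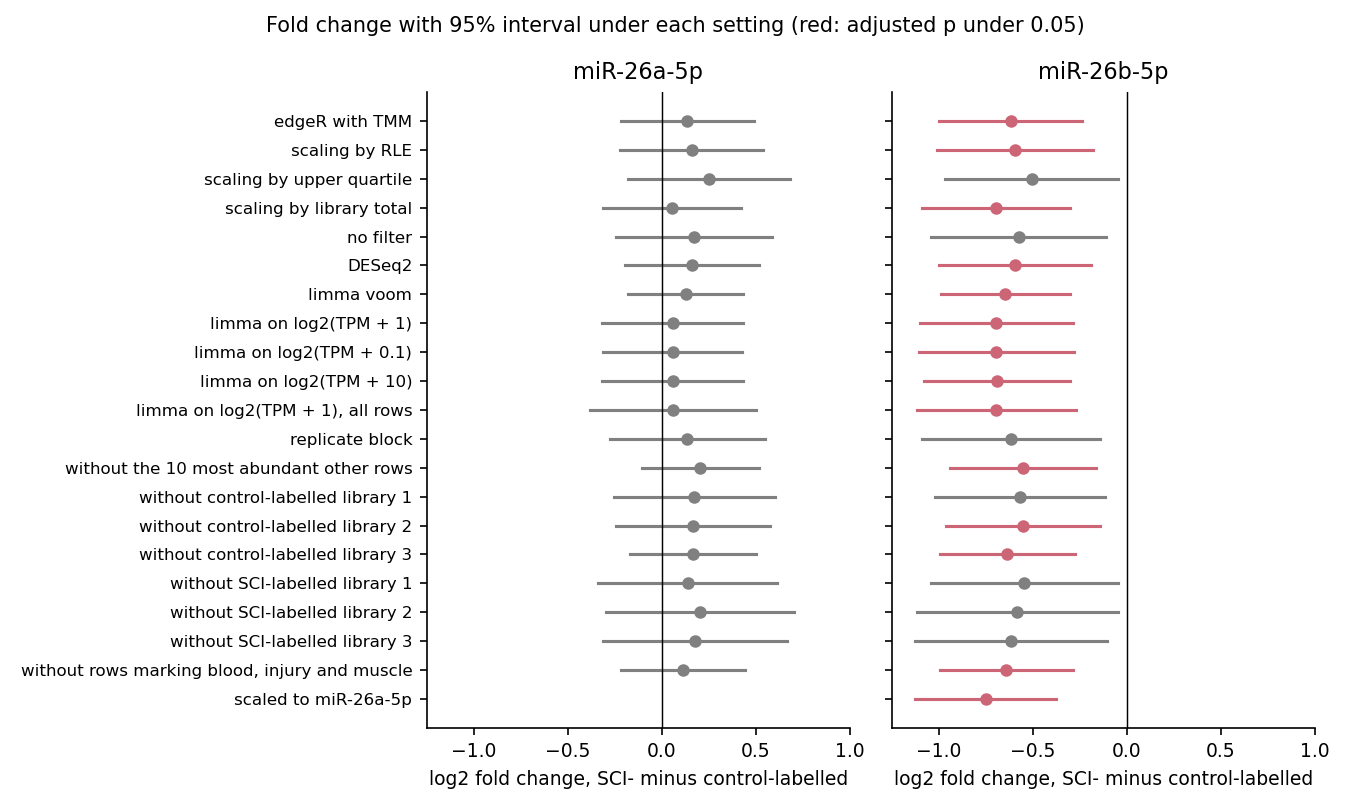
Log2 fold change (SCI-labelled minus control-labelled) with its 95% interval for miR-26a-5p and miR-26b-5p under each scaling, filter, tool and left-out library; red marks an adjusted p under 0.05. All miR-26a-5p intervals include 0, and all miR-26b-5p intervals lie below it although 7 of the 20 alternatives missed the adjusted threshold; the bottom setting exists for miR-26b-5p alone.

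Because both strands are read in the same library, their ratio needs no scaling between libraries. There were 8.26, 8.10 and 9.08 reads of miR-26a-5p for each read of miR-26b-5p in control-labelled libraries 1, 2 and 3. In SCI-labelled libraries 1, 2 and 3 there were 15.8, 13.7 and 13.5. The groups did not overlap on this measure, the highest control-labelled ratio being below the lowest SCI-labelled one. Such separation is common here: it held for 51.3% of all tested rows in TMM-scaled CPM. A share for ratios was not computed. The mean log2 ratio was 3.08 ± 0.0882 for the control label and 3.84 ± 0.125 for the SCI label (SD, n = 3 each), a difference of 0.75, or 1.69-fold. The exact two-sided permutation p was 0.1, the smallest that 3 libraries against 3 can give, and 0.133 after Benjamini-Hochberg adjustment over the 4 ratios tested. Leaving out any 1 library gave differences of 0.68 to 0.80.

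The same contrast was put to the whole table by using the miR-26a-5p count of each library as its size, a setting added after the values had been seen. Relative to miR-26a-5p, miR-26b-5p had a log2 change of -0.75 (SE 0.16, 95% interval -1.13 to -0.38; edgeR quasi-likelihood adjusted p = 0.0087), in a fit in which 37.0% of rows passed. The miR-26a-5p count is treated as exact there.

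Summed over both strands the family was level as a share of counts. It took 2.16%, 2.49% and 2.67% of counts in the control-labelled libraries. In the SCI-labelled libraries it took 2.63%, 2.24% and 2.42%. The means were 2.44% ± 0.258 and 2.43% ± 0.193 (SD, n = 3 each), and the groups overlapped. On the TMM scale the sum was 23687 ± 1249 CPM under the control label and 24907 ± 716 under the SCI label (SD, n = 3 each), also with overlap. Most of the sum is miR-26a-5p, so it can show little of a change in miR-26b-5p. The sources used here do not say how many mismatches were allowed or how reads that match both strands were divided. The strands differ at positions 11 and 21, so the split of reads between them could depend on those rules.

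The passenger strands were rare. miR-26b-3p, the partner of miR-26b-5p, had 27, 17 and 33 counts in control-labelled libraries 1, 2 and 3. In the SCI-labelled libraries it had 23, 17 and 26. Its TMM-scaled means were 3.76 ± 0.632 and 2.81 ± 0.159 CPM (SD, n = 3 each), with a log2 difference of -0.42 (95% interval -1.07 to 0.23; edgeR quasi-likelihood adjusted p = 0.279). The value has the same sign as that of miR-26b-5p and did not pass the test. The log2 ratio of miR-26b-5p to its passenger was 9.36 ± 0.354 for the control label and 9.15 ± 0.117 for the SCI label (SD, n = 3 each), by an exact permutation test p = 0.6, with overlapping groups.

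miR-26a-2-3p, the passenger of Mir26a-2, had 90, 73 and 101 counts in control-labelled libraries 1, 2 and 3. In SCI-labelled libraries 1, 2 and 3 it had 109, 52 and 77. In TMM-scaled CPM the groups overlapped, at 11.9 to 14.4 against 8.06 to 13.5, and the log2 difference of -0.38 (95% interval -0.98 to 0.23) did not pass the test (edgeR quasi-likelihood adjusted p = 0.293). miR-26a-1-3p, the passenger of Mir26a-1, was counted 7, 4 and 9 times in control-labelled libraries 1, 2 and 3 and 5, 2 and 5 times in the SCI-labelled ones, and was not tested for a difference between groups because too few counts were present. In every library the Mir26a-2 passenger was the more abundant of the pair. Passenger counts need not reflect how much guide each hairpin gives.

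Ratios of miR-26a-5p to its passengers were larger in each SCI-labelled library than in any control-labelled one. In TMM-scaled CPM, 51.3% of all tested rows also separated the groups, and a share for ratios was not computed. The log2 ratio of miR-26a-5p to miR-26a-2-3p was 10.6 ± 0.167 for the control label and 11.2 ± 0.352 for the SCI label (SD, n = 3 each), and the margin between the groups was narrow, 10.77 against 10.80. To miR-26a-1-3p it was 14.3 ± 0.369 and 15.4 ± 0.418 (SD, n = 3 each), on counts so small that 1 read shifts it. Both had an exact permutation p of 0.1 and 0.133 after adjustment.

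**Figure D3:**
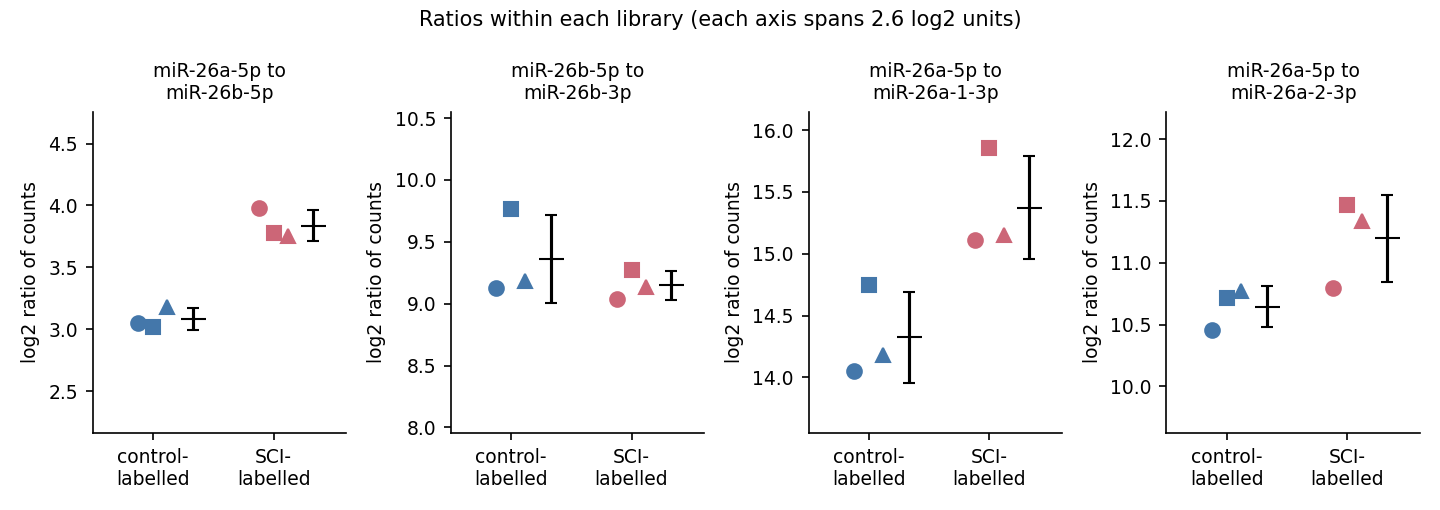
Log2 ratios of counts within each library for the pair of guide strands and for each guide against its passenger strands; colours mark the labelled groups, shapes the library number, black bars the mean and SD (n = 3). The ratio of miR-26a-5p to miR-26b-5p is 3.02 to 3.18 under the control label and 3.75 to 3.98 under the SCI label, while the ratio of miR-26b-5p to miR-26b-3p overlaps.

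**Figure D4:**
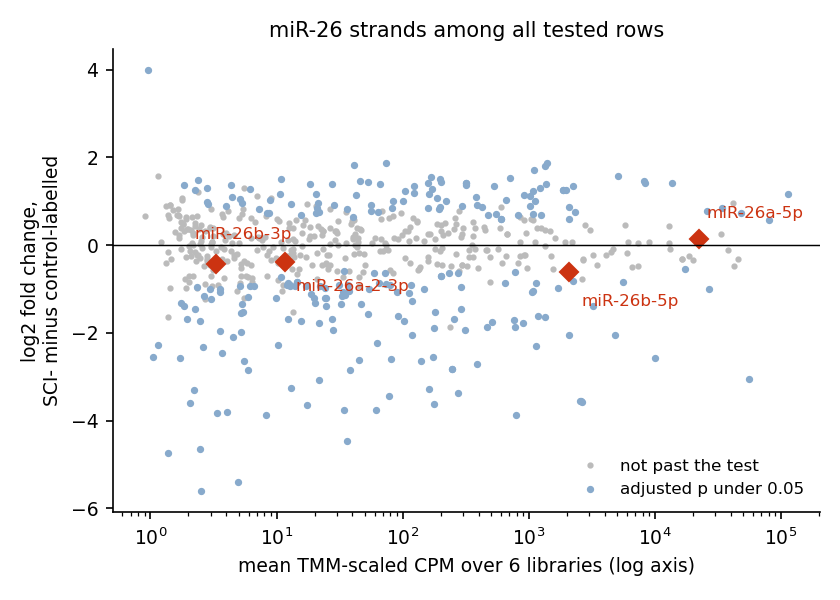
Log2 fold change (SCI-labelled minus control-labelled) against mean TMM-scaled CPM on a log axis for the 614 tested rows; blue rows passed the test and red diamonds are the 4 miR-26 strands tested. miR-26b-5p lies at -0.62 and miR-26a-5p at 0.14, both within the band that holds most rows.

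On the TMM scale, the log2 profiles of the 2 guides over the 6 libraries ran in opposite directions (Pearson r = -0.73). This value depends on the scaling, since the groups overlapped for miR-26a-5p as a plain share of counts. Among 226 other rows of at least 100 CPM, the 5 rows most like miR-26b-5p were led by miR-92a-3p (r = 0.997) and miR-140-3p (0.994). The others were miR-486a-5p, miR-486a-3p and miR-486b-3p (0.992 each). The miR-486 rows had near-equal control-labelled means of 4859, 4781 and 4741 CPM, so they may not be separate measures. miR-486a-5p is also one of the red cell marker rows. All 5 had larger differences than miR-26b-5p, with log2 changes from -3.57 to -1.70. Their centred profiles lay 0.55 to 1.52 log2 units (root mean square) from that of miR-26b-5p. The 6 libraries behind these correlations share the group difference, so r is given only as a description. The summed red cell marker rows were at 10378 to 30474 CPM under the control label and 2219 to 5121 under the SCI label, and the myeloid rows at 1642 to 2574 against 120 to 242. The part of these cells in the miR-26b-5p difference was not tested. With the 10 rows marking blood, injury and muscle removed from the table and its totals, the log2 change of miR-26b-5p was -0.64 (edgeR quasi-likelihood adjusted p = 0.0118). That removal changes only the scaling and the fit. Reads of miR-26b-5p from any such cells stay counted, so it cannot show the part of these cells.

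The 5 rows most like miR-26a-5p were miR-433-3p (r = 0.912), miR-370-3p (0.908), miR-383-5p (0.902), miR-328-3p (0.901) and miR-382-3p (0.873). miR-433-3p, miR-370-3p and miR-382-3p come from the imprinted Dlk1-Dio3 region. Their log2 changes were 0.39 to 0.89, against 0.14 for miR-26a-5p, and miR-382-3p, at 1074 ± 48.8 and 1408 ± 77.7 CPM (SD, n = 3 each), had the closest profile at 0.14 log2 units. These correlations rest on 6 TMM-scaled libraries that share the group difference and are given as a description. The separation of miR-26a-5p between the groups depended on the scaling, so its list of most similar rows may depend on that scaling too.

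The difference between the guides was set beside that within other seed families, as values with no test. Among 10 families with at least 2 rows of 1000 CPM or more and a RefSeq sequence, the spread of log2 change between members had a median of 0.61, and miR-26, at 0.76, ranked the 4th. The miR-30 rows had the widest spread, from -0.99 for miR-30a-5p to 0.46 for miR-30c-5p, and the 8 let-7 rows, at 0.70, were next to miR-26. miR-181a-5p and miR-181b-5p, at 0.07 each, had the smallest. This comparison was added after the values had been seen.

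Other miRNAs that Myc lowers gave a mixed picture around miR-26. Of the 20 other members of that list, 4 were lower, 1 was higher and 15 did not pass the test, with a median log2 change of -0.33 against -0.07 for all rows. Of all rows, 23.1% were lower and 16.3% higher, so the count of lower members is near the background. miR-30a-5p, at 35867 ± 1357 and 18062 ± 1090 CPM (SD, n = 3 each), was 1.99-fold lower, and miR-16-5p, which holds back cyclins, was 4.96-fold lower. miR-15a-5p, made with miR-16, was 3.83-fold lower. miR-22-3p was close to miR-26b-5p in size, at 1.52-fold lower, and miR-34a-5p, a target of p53, was 2.63-fold higher. Without control-labelled library 3 edgeR called 9 lower and 4 higher (miR-29b-3p, miR-29c-3p, miR-30c-5p and miR-34a-5p), and 7 did not pass. In that fit 52.2% of all 634 rows passed, 179 as lower and 152 as higher. The share of lower members was above that of all rows there, a difference that was not tested.

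Ezh2 is also reported as a target of other miRNAs of the cord. Of 6 such miRNAs, edgeR and DESeq2 each called 0, none by edgeR was under 0.05 before adjustment (0 of 6), and limma voom called 1, miR-138-5p. Over all rows the share called was 39.4% by edgeR and 40.2% by DESeq2. miR-101a-3p was at 7235 ± 1037 and 7464 ± 627 CPM and miR-101b-3p at 4431 ± 442 and 3814 ± 264 (SD, n = 3 each). Without control-labelled library 3, edgeR called miR-138-5p higher (log2 0.94, adjusted p = 0.00293) and let-7a-5p lower (-0.49, 0.0492), and with upper-quartile scaling miR-138-5p higher (0.74, 0.0427).

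**Figure D5:**
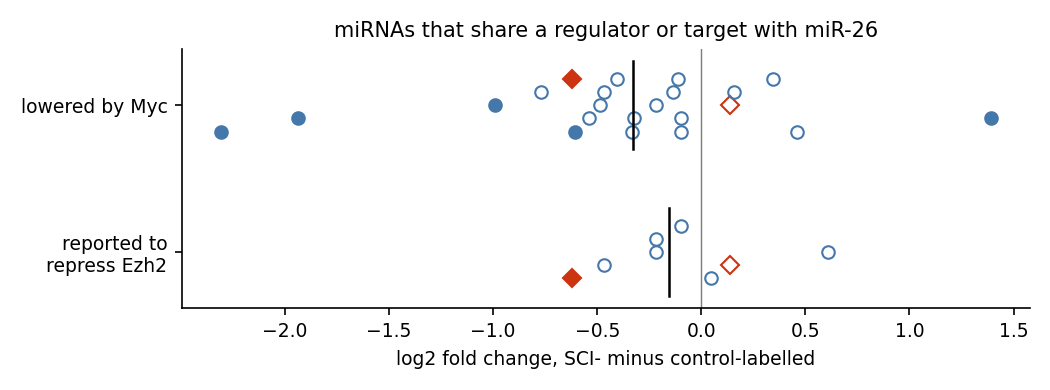
Log2 fold change (SCI-labelled minus control-labelled) of the miRNAs lowered by Myc and those reported to repress Ezh2; red diamonds are miR-26 strands, blue circles the other members, filled symbols passed the test, and the vertical bar is the list's median with miR-26 included. miR-26a-5p sits at 0.14 and miR-26b-5p at -0.62, on either side of the medians of both lists.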

How the data were processed

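Read counts per miRNA were deposited by the authors without normalization, with a TPM column that, per the file headers and values, is the deposited count scaled to a shared column total (agreement within 2.74e-05; no length term). The submitters' processing notes name Bowtie (no version) and mm10. For the miRBase release, mismatches and multiple matches, nothing is stated (not given in the sources used here). Columns were matched through the sample descriptions. Each NEBNext small RNA library was made from 3 µg of RNA, per the labels' protocols.

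Differences were fitted with edgeR 4.0.16 in R 4.3.3: filterByExpr (minimum count 10; 614 rows), TMM, a robust quasi-likelihood test between the 2 groups without covariates, and Benjamini-Hochberg adjustment over all 614 rows at 0.05. The steps were tested on simulated data. Ratios used counts + 0.5 and exact two-sided permutation tests. Alternatives used DESeq2 1.42.0, limma 3.58.1 (voom with a quality weight per library, and log2(TPM + 1)), other scalings and filters, and left-out libraries. Named miRNAs are both members, their passengers, the 5 most correlated rows per member, neighbours in abundance and the most abundant or called members of 2 lists; another list is not reported here. Other examples, miR-22-3p, miR-34a-5p, miR-16-5p and the seed families among them, were chosen after their values were seen. Members and lists were chosen with earlier results of these data known.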

Additional observations from a re-analysis of the deposited data

How the results depend on the processing

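miR-26a-5p kept its sign and stayed outside the adjusted threshold in all 19 alternatives, with log2 changes of 0.06 to 0.25. For miR-26b-5p, 13 of 20 alternatives kept the call. These are not independent: they include several near-identical limma fits on log2 TPM, each at log2 -0.69, and the fit scaled to miR-26a-5p, which measures a ratio. miR-26b-5p missed the threshold with upper-quartile scaling (log2 -0.51), with no filter (-0.57) and in the fit with the replicate block (-0.62, edgeR adjusted p = 0.0529). It also missed it without control-labelled library 1 or without any 1 of the SCI-labelled libraries. Leaving out 1 library gave -0.64 to -0.55. The replicate numbers do not pair the libraries (correlations of deviations of -0.23, 0.13 and -0.16 for numbers 1, 2 and 3), and the block moved the count of rows past the test from 242 to 190. That count ranged from 141 to 331 when 1 library was left out. Upper-quartile scaling moved the median log2 change of all rows from -0.07 to 0.04, and the split of calls from 100 higher and 142 lower to 120 and 120. The 4 within-library ratios kept their sign in each of 8 alternatives, the replicate block included, where the difference of miR-26a-5p to miR-26b-5p was 0.75 (exact sign-flip p = 0.25, the smallest possible with 3 pairs). Counts of the passengers limit their ratios, and the miR-26b-5p to miR-26b-3p difference came as near 0 as -0.01. Removing the blood, injury and muscle rows and scaling to miR-26a-5p were added after seeing the data.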
